A study of Felis catus with 36 samples.

Results

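The 100 genes described here were abundant and steady in both tissues of this series, cat left ventricle (LV) and skeletal muscle (SKM). They were chosen from the deposited counts among 26681 genes. Counts were divided by the library's gene total and multiplied by 1e6 (CPM), and the mean CPM of each of 8 groups was put on a log2 scale after adding 0.5. A gene was kept if no pair among the 4 group means of LV, and no pair among the 4 of SKM, differed by 0.4 or more. That limit kept 13692 genes, of which 1795 had a mean of at least 1 CPM in both tissues. The 100 kept genes with the highest smaller value of mean CPM in LV and mean CPM in SKM were taken. Measured values thus chose the genes, and every difference between groups of the same tissue was used to choose them. Those differences are given below as descriptions, without a test. The difference between LV and SKM had no limit in the choice and was tested. The ranking did use the level in each tissue, so genes low in either tissue could not enter. The tested difference is thus not independent of the choice.

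Messenger RNA was sequenced from cats that had aortic banding, a narrowing of the aorta used here to model heart failure with preserved ejection fraction (HFpEF), and from cats that had a sham operation. In each tissue there were 5 libraries of banded cats at 4 months, 5 of banded cats at 1 month, 5 of sham cats at 4 months and 3 of sham cats at 1 month. The series asks how expression changes as the disease of this model progresses. A stranded mRNA kit, started from total RNA, gave all 36 libraries, and neither the age and sex of the cats nor pooling is given in the labels. Nothing states that the libraries of a group come from separate cats, so p-values measure the spread between these samples only, which may be technical.

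Heart and skeletal muscle are both striated, and both are rich in mitochondria and contractile proteins, so their libraries share many abundant transcripts. Genes that stay level across conditions are commonly looked for as references against which others are scaled. A CPM value is a share of the library, so a few very abundant transcripts that take more of it lower the values of all others. The files name genes by Ensembl identifiers only and do not pair them with symbols, and 0 of the 100 could be joined to a symbol in the reference table. No role is therefore given to any of them, and the tissue labels could not be checked against marker genes.

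Libraries held 14.6 to 22.3 M gene counts in LV and 21.5 to 34.9 M in SKM (M, 1e6 counts). The lowest count of any of the 100 genes in any library was 2141 in LV and 2667 in SKM, so counting error was at most 2.16% and 1.94% of a value. The share of reads assigned to a gene was 46.1% to 63.8% in LV libraries and 56.3% to 76.3% in SKM libraries. The 10 most abundant genes of a library took 13.5% to 20.4% of its gene counts in LV and 25.4% to 36.7% in SKM.

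Among the 11097 genes with a mean of at least 1 CPM in both tissues, 1795 met the limit on group differences, or 16.2%. Of the 394 genes whose smaller tissue mean was at least that of the lowest chosen gene, 100 met it, or 25.4%, and the other 294 are the abundant genes that did not. The 100 genes had tissue means of 183.4 to 3728 CPM in LV, with a median of 534.4 CPM. Their tissue means were 180.0 to 32317 CPM in SKM, with a median of 337.2 CPM. By these means 75 genes were higher in LV and 25 were higher in SKM. CPM is not divided by transcript length, so it orders genes by their share of reads and not by the number of molecules.

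**Figure D1:**
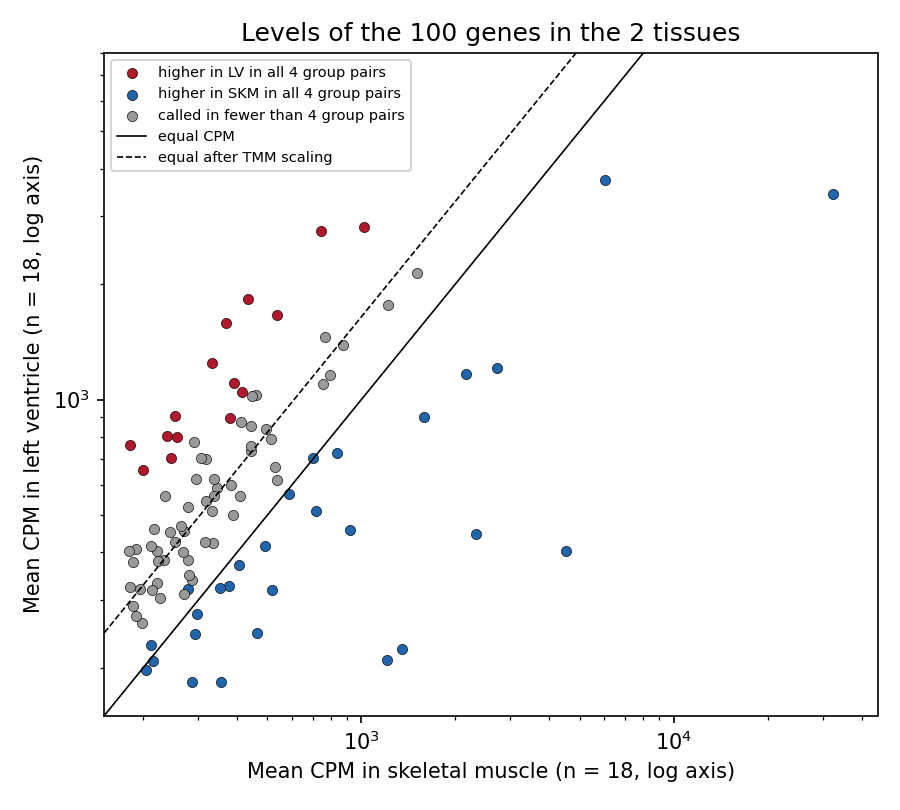
Mean CPM over the 18 libraries of LV and over the 18 of SKM for each of the 100 genes, on log axes, with a solid line of equal CPM and a dashed line of equal value after TMM scaling, a scaling for composition described below. Colours mark the genes that edgeR called in all 4 LV minus SKM differences after that scaling (15 higher in LV, 28 higher in SKM), and 75 of the 100 genes lie above the solid line.

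The limit on group differences left a range. The largest difference between group means of a gene ran from 0.06 to 0.40 in LV, with a median of 0.29 on the log2 scale. It ran from 0.08 to 0.40 in SKM, with a median of 0.25. Nearest inside the limit were ENSFCAG00000010075, at 0.3996 in SKM, and ENSFCAG00000014170, at 0.3996 in LV. Nearest outside, among genes abundant enough, were ENSFCAG00000038613 at 0.4012 and ENSFCAG00000000600 at 0.4014, both in LV. At the limit on abundance the last genes inside were ENSFCAG00000035948 and ENSFCAG00000003470, with smaller tissue means of 181.3 and 180.0 CPM. The first outside were ENSFCAG00000037105 and ENSFCAG00000023860, with 179.4 and 178.0 CPM. Both limits thus pass through a dense run of genes, and the genes next to each limit differed by far less than the spread between libraries.

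Together the 100 genes took a small share of each library. Their summed share of gene counts in LV was 7.07% ± 0.475 in banded cats at 4 months (SD, n = 5) and 7.49% ± 0.482 in banded cats at 1 month (SD, n = 5). It was 7.29% ± 0.541 in sham LV at 4 months (SD, n = 5) and 7.81% ± 0.838 in sham LV at 1 month (SD, n = 3). In SKM it was 9.23% ± 0.168 in banded cats at 4 months (SD, n = 5) and 8.90% ± 0.404 in banded cats at 1 month (SD, n = 5). All LV groups lay below all SKM groups in mean share, and 1 gene carried that order. In sham SKM the share was 8.89% ± 0.102 at 4 months (SD, n = 5) and 9.14% ± 1.01 at 1 month (SD, n = 3), where the 3 libraries ran from 7.97% to 9.85%. Without ENSFCAG00000014170 the mean share of the other 99 genes was 6.76% to 7.40% in the 4 LV groups and 5.71% to 5.99% in the 4 SKM groups. The higher tissue in summed share was thus SKM with this gene and LV without it.

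The most abundant gene by its smaller tissue mean was ENSFCAG00000002107. In LV it had 4075, 3405, 3142, 3721 and 3178 CPM in banded cats at 4 months, against 4534, 3515, 3177, 3156 and 4233 CPM in sham cats at 4 months. At 1 month it had 4523, 3242, 3991, 4063 and 3432 CPM in banded LV, against 4707, 2747 and 4259 CPM in sham LV. Banded and sham LV libraries overlapped at both times, and the lowest of all LV libraries was sham 1-month library 2. In SKM it had 6331, 5797, 5617, 5622 and 5728 CPM in banded cats at 4 months, against 7118, 6687, 5791, 5917 and 5601 CPM in sham cats at 4 months. The values at 1 month were 8334, 5674, 5769, 5089 and 4533 CPM in banded SKM, against 7075, 6495 and 5687 CPM in sham SKM. Its group means differed by no more than 0.16 in LV and 0.14 in SKM on the log2 scale, while single libraries of banded 1-month SKM ran from 4533 to 8334 CPM.

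ENSFCAG00000014170 was the most abundant of the 100 in SKM. In LV it had 3178, 2898, 3059, 3365 and 2871 CPM in banded cats at 4 months, against 3754, 3577, 3248, 3649 and 3754 CPM in sham cats at 4 months. At 1 month it had 3510.2, 3129.8, 3494, 3122 and 2979 CPM in banded LV, against 4434, 3834 and 3899 CPM in sham LV. At 1 month every sham LV library lay above every banded one, and at 4 months the groups overlapped. This gene was the nearest to the limit in LV, between banded cats at 4 months and sham cats at 1 month, which is the pair of LV groups farthest apart. In SKM it had 32204, 33495, 32694, 38999 and 36018 CPM in banded cats at 4 months, against 28167, 31226, 31386, 33501 and 30278 CPM in sham cats at 4 months. The values at 1 month were 21262, 33083, 27932, 32492 and 44728 CPM in banded SKM, against 21016, 36047 and 37172 CPM in sham SKM. Banded and sham SKM libraries overlapped at both times, and the lowest libraries were library 1 of banded SKM at 1 month and library 1 of sham SKM at 1 month.

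**Figure D2:**
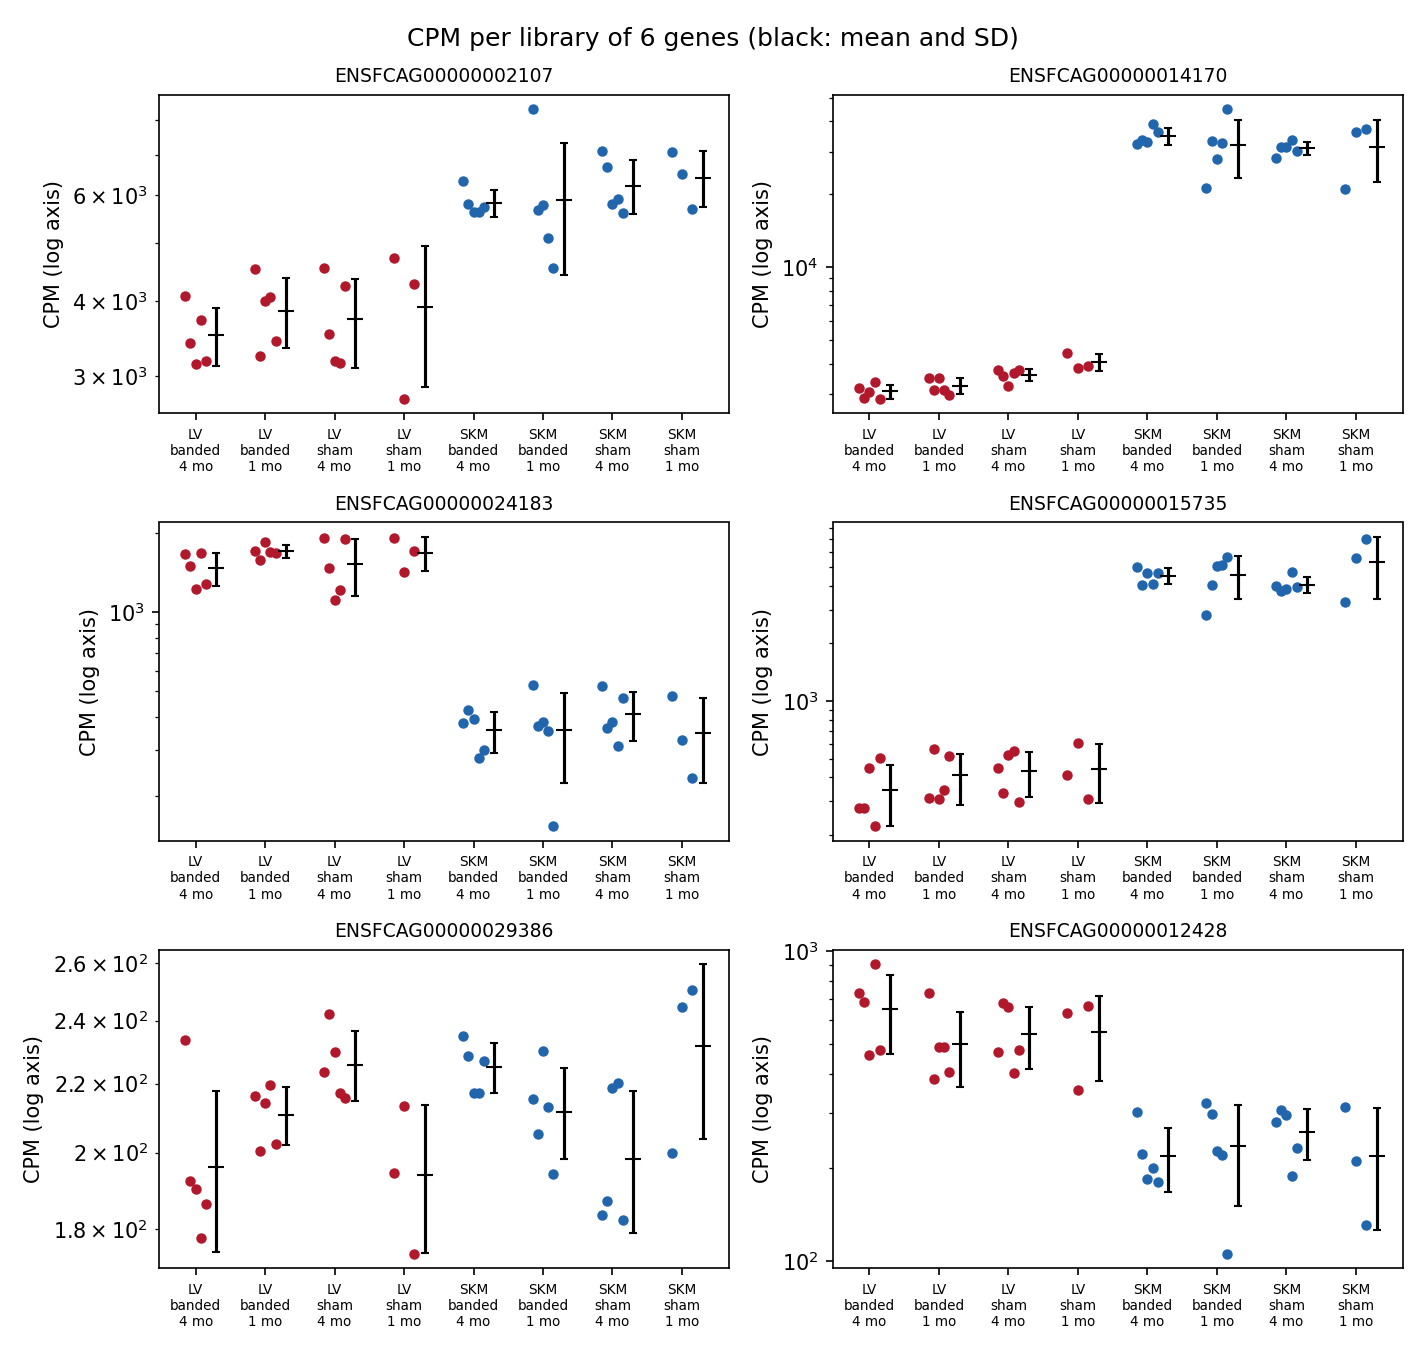
CPM of 6 of the 100 genes in each of the 36 libraries, by group, on a log axis, with coloured points for libraries and black marks for group means ± SD. In each tissue the 4 group means stand close together, while single libraries of a group can be far apart, as in SKM at 1 month.

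Steadiness of group means did not mean that single libraries were level. Each gene's spread between libraries of the same group was pooled over the 4 groups of a tissue as an SD of log2 CPM. Its median over the 100 genes was 0.20 in LV, against 0.29 for the 294 other abundant genes and 0.32 for the 11097 genes at 1 CPM or more. In SKM the medians were 0.24 for the 100 genes, 0.27 for the 294 others and 0.28 for the 11097 genes. The spread is not independent of the choice, since means of variable libraries meet a limit less often, and no test was made. An SD under 0.2 was seen for 53 of the 100 genes in LV and 31 in SKM, against 17.0% of the other 294 in LV and 19.7% in SKM. With scaling by edgeR's trimmed mean of M values (TMM), which corrects for composition, the median SD of the 100 genes was 0.22 in LV and 0.21 in SKM.

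Over all 18 libraries of LV, the highest and lowest library of a gene differed by 0.33 to 1.45 on the log2 CPM scale, with a median of 0.78. Only 2 of the 100 genes stayed within 0.4 over all LV libraries, and 24 ranged over more than 1. In SKM the range was 0.41 to 1.78, with a median of 0.95. There 0 of the 100 stayed within 0.4 and 42 ranged over more than 1. Of the other 294 abundant genes, 66.7% ranged over more than 1 in LV and 77.2% in SKM.

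**Figure D3:**
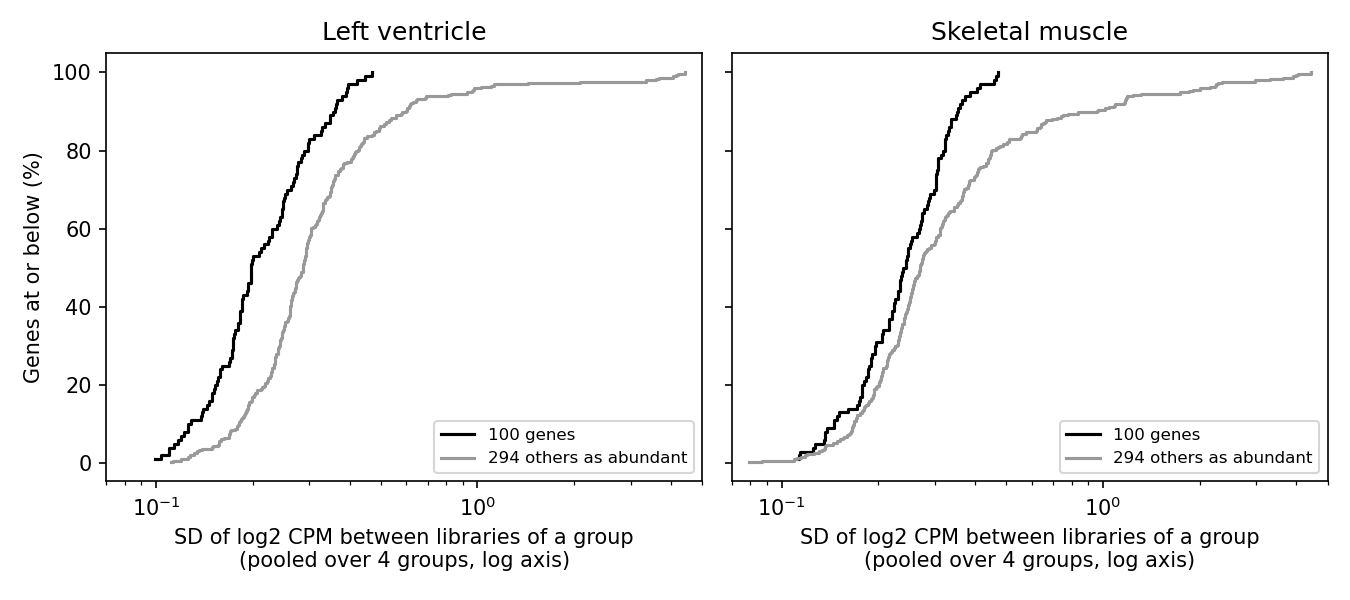
Cumulative percentage of genes at or below a given SD of log2 CPM between libraries of a group, pooled over the 4 groups of a tissue (log axis), for the 100 genes and for the 294 other genes as abundant. The medians of the 100 and of the 294 are 0.20 and 0.29 in LV, and 0.24 and 0.27 in SKM.

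The gene with the lowest SD, averaged over the 8 groups, was ENSFCAG00000029386, with 0.11. In LV it had 233.8, 192.2, 190.2, 177.7 and 186.4 CPM in banded cats at 4 months, against 223.6, 242.4, 229.9, 217.3 and 215.7 CPM in sham cats at 4 months. At 1 month it had 216.1, 200.5, 214.1, 219.5 and 202.5 CPM in banded LV, against 194.4, 213.3 and 173.9 CPM in sham LV. All LV libraries lay between 173.9 and 242.4 CPM, and banded and sham libraries overlapped at both times. In SKM it had 235.1, 228.7, 217.3, 217.2 and 226.9 CPM in banded cats at 4 months, against 183.6, 187.1, 218.6, 220.2 and 182.1 CPM in sham cats at 4 months. The values at 1 month were 215.5, 205.2, 230.3, 212.9 and 194.2 CPM in banded SKM, against 199.8, 244.7 and 250.5 CPM in sham SKM. SKM libraries lay between 182.1 and 250.5 CPM, so the libraries of the tissues covered nearly the same range. The next lowest SD, 0.12, was that of ENSFCAG00000013052, at 1642 to 2071 CPM in LV and 351.9 to 559.0 CPM in SKM.

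At the other end was ENSFCAG00000012428, with an average SD of 0.43. In LV it had 730.7, 683.1, 460.8, 904.2 and 479.6 CPM in banded cats at 4 months, against 471.4, 679.3, 658.9, 405.0 and 478.9 CPM in sham cats at 4 months. At 1 month it had 730.0, 384.9, 489.0, 491.7 and 406.9 CPM in banded LV, against 628.4, 356.2 and 663.3 CPM in sham LV. Libraries of the same LV group were widely scattered, and every pair of LV groups overlapped. In SKM it had 302.7, 221.3, 184.1, 200.1 and 179.6 CPM in banded cats at 4 months, against 281.0, 306.6, 295.1, 187.8 and 232.2 CPM in sham cats at 4 months. The values at 1 month were 322.9, 297.2, 226.9, 220.2 and 105.5 CPM in banded SKM, against 314.9, 209.6 and 130.6 CPM in sham SKM. In SKM, library 5 of banded cats at 1 month was the lowest and library 1 of the same group the highest. The second highest SD, 0.42, was that of ENSFCAG00000038141, at 401.9 to 958.6 CPM in LV and 93.6 to 311.2 CPM in SKM.

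The genes deviated from their group means together, library by library. The number of the 100 genes above their own group's mean ran from 17 to 85 over the LV libraries and from 11 to 89 over the SKM libraries. A single principal component held 57.7% of the variance of these deviations in LV and 62.3% in SKM. It held 76.1% and 68.2% over the 294 others, and 30.0% and 24.8% over the 11097 genes. The shared deviation is a description of these libraries, since genes of a library share its depth and its total.

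In SKM the extremes were both banded at 1 month. In library 1 of that group 89 genes were above their group mean, and its 10 most abundant genes took 25.4% of its counts, the lowest share among SKM libraries. In library 5 only 11 genes were above, and the 10 most abundant took 36.7%, the highest share. With TMM scaling the counts were 83 in library 1 and 33 in library 5, and the lowest in SKM was then 20, in library 5 of sham cats at 4 months. The summed share of the 100 genes was 8.55% in library 1 and 9.56% in library 5. Between these libraries the count above the group mean moved opposite to the share of the top genes, and the summed share moved with that share. In sham LV at 4 months the order was mixed. There library 1 had 83 genes above and a top share of 17.9%, against 29 and 15.7% in library 3. Library 4 had the fewest genes above in that group, 17, with the highest top share, 18.8%. On the CPM scale library 1 had the most genes above the group mean in every group, 82 to 85 in LV and 71 to 89 in SKM. With TMM scaling this held only in sham LV and sham SKM at 4 months and in banded SKM at 1 month. In banded LV at 4 months, library 1 then had 54 and library 3 had 76. In sham SKM at 1 month, library 1 had 45 and library 2 had 66. The part of the top genes in these deviations was not tested.

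Within the 100, 5 genes that were far higher in SKM, chosen after their values were seen, went against the other 95 in part of the libraries. They include ENSFCAG00000014170 and ENSFCAG00000015735, and they took 0.411% to 0.577% of all gene counts in LV libraries, against 2.69% to 5.63% in SKM libraries. In banded SKM library 1 of 1 month all 5 lay below their group mean, with a median of -0.60 on the log2 scale, while 89 of the other 95 lay above, with a median of 0.35. In library 5 of that group all 5 lay above, with a median of 0.43, and 89 of the other 95 lay below, with a median of -0.30. Sham SKM at 1 month had the same contrast. Its library 1 had all 5 below, with a median of -0.58, and 71 of 95 above, and its library 3 had all 5 above, with a median of 0.48, and 67 of 95 below. The medians of the 5 and of the 95 had opposite signs in 8 of 18 LV libraries and in 13 of 18 SKM libraries. With TMM scaling they did so in 8 of 18 LV libraries and 10 of 18 SKM libraries. Medians of unrelated genes would also take opposite signs in many libraries, and no test was made. The libraries detailed here are all of SKM at 1 month.

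**Figure D4:**
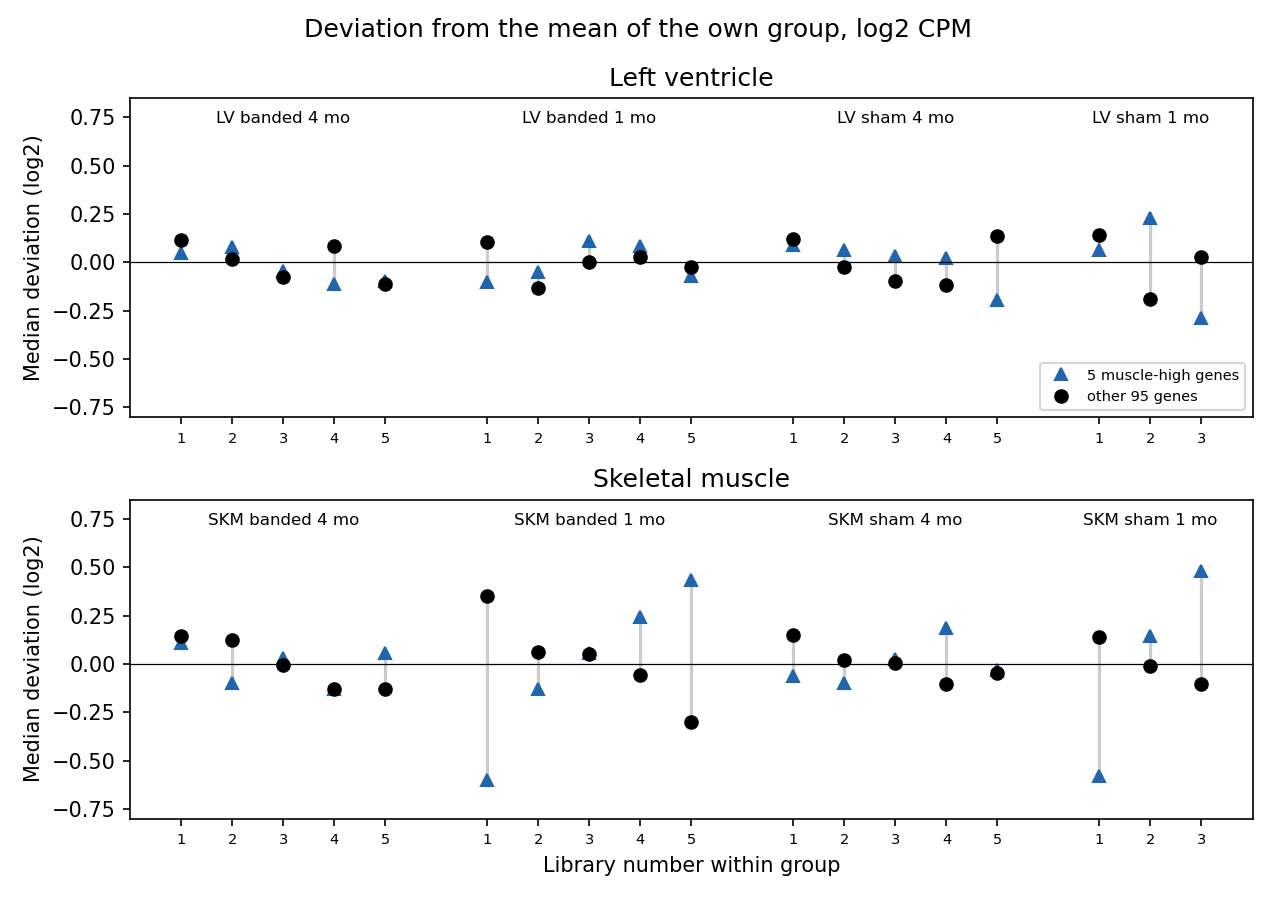
Median deviation from the mean of the own group, on the log2 CPM scale, in each library, for the 5 genes far higher in SKM (triangles) and the other 95 of the 100 genes (circles). In SKM the 5 range from -0.60 to 0.48 and the 95 from -0.30 to 0.35, with opposite signs in 13 of 18 libraries.

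Differences between the groups of a tissue are set by the choice of genes and are described only. On the CPM scale the median difference of the 100 genes between banded cats at 4 months and at 1 month was -0.11 in LV, with 29 genes higher at 4 months, and 0.02 in SKM, with 51 higher. All genes at 1 CPM or more had medians of -0.21 in LV and -0.11 in SKM for this difference, which moved to 0.03 and 0.05 with TMM scaling. The 100 genes then had medians of 0.13 in LV, with 82 higher at 4 months, and 0.19 in SKM, with 75 higher. Set against the median of all genes, the 100 stood 0.10 higher in LV and 0.13 or 0.14 higher in SKM. The scaling moves all genes of a library alike, so the sign of the LV median turned with it while this distance could hardly move, and the distance rests on differences that chose the genes.

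For banding at 1 month, the median difference of the 100 genes, banded minus sham, was -0.04 in LV, with 43 genes higher in banded cats, and -0.01 in SKM, with 46 higher. With TMM scaling it was -0.19 in LV, with 4 higher, and -0.12 in SKM, with 15 higher. Against the median of all genes this was -0.14 (CPM) and -0.16 (TMM) in LV, and -0.11 and -0.12 in SKM. The median was thus below 0 in both tissues on both scales. For banding at 4 months the medians were -0.03 in both tissues on the CPM scale, and -0.05 in LV and -0.02 in SKM with TMM scaling. For time in sham cats they were -0.11 in LV and -0.02 in SKM on the CPM scale, and -0.01 and 0.04 with TMM scaling. Group means of all 100 genes were held within 0.4 on the CPM scale by the choice, and with TMM scaling 64 stayed within all limits.

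Among the differences of time and of banding described here, the largest loss with TMM scaling was in banded cats between 4 months and 1 month. There 86 of the 100 genes stayed within 0.4 in LV and 89 in SKM. Pairs of groups that differ in both time and banding were not counted separately. For banding at 4 months all 100 stayed within it in both tissues. In the authors' deposited table for banded LV at 4 months against 1 month, 23 of the 100 genes had an adjusted p under 0.05, all higher at 4 months, against a background of 26.7% of all genes. In the authors' deposited table for the same times in banded SKM, 30 did, all higher at 4 months, against a background of 44.4%. Both shares lie below their background. In the authors' deposited tables for LV, 0 of the 100 did for banding at 1 month (background 0.662%), banding at 4 months (0.93%) or time in sham cats (7.05%). In the authors' deposited tables for SKM, 0 did for banding at 1 month (background 0.121%), banding at 4 months (0.655%) or time in sham cats (8.51%). Fold changes in the authors' deposited tables that involve sham at 4 months were matched more closely with library 1 of sham at 1 month in place of library 1 of sham at 4 months. The median distance was then 0.00139 to 0.00197 on the log2 scale, against 0.0716 to 0.0796 with the libraries as labelled, so these counts and backgrounds may rest on other libraries than their labels say. The choice of genes also used these same differences, so nothing is read from the counts.

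Between the tissues many of the 100 genes differed. The 100 and the 294 others had to be abundant in both tissues, which was not asked of all genes tested. Shares of all genes are therefore given as a background only. With edgeR's quasi-likelihood test after TMM scaling, and Benjamini-Hochberg adjustment over 14579 genes, 61 of the 100 genes passed an adjusted p of 0.05 and are called here in banded cats at 4 months, against 67.8% of all genes tested. Of these, 22 were higher in LV and 39 were higher in SKM, against 35.8% and 32.0% of all genes. In banded cats at 1 month 62 were called, against 53.3% of all genes, with 25 higher in LV (28.3% of all genes) and 37 higher in SKM (25.0% of all genes). The overall shares called lie near those of all genes and are not a feature of these 100. Nor is the lean towards SKM, since of the 294 other abundant genes 43.2% were called higher in SKM in banded cats at 4 months and 42.5% in banded cats at 1 month.

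In sham cats at 4 months 54 of the 100 genes were called between the tissues, against 65.3% of all genes, with 19 higher in LV (34.1% of all genes) and 35 higher in SKM (31.2% of all genes). In sham cats at 1 month 56 were called, against 44.6% of all genes, with 25 higher in LV (23.3% of all genes) and 31 higher in SKM (21.2% of all genes). This group has 3 libraries per tissue, and the count there was 34 when only its own 6 libraries were fitted. The median fold change of the 100 genes, LV minus SKM, was between -0.11 and 0.00 on the log2 scale over the 4 groups, against 0.10 to 0.11 for all genes. The 294 other abundant genes had medians of -0.25 to -0.11, lower than the 100 in each group, and 43.9% (4 months) and 32.0% (1 month) of them were called higher in SKM in sham cats. A median below that of all genes was thus seen in the other abundant genes too. The typical size of the difference, taken as the median of the absolute fold changes, was 0.41 to 0.55 for the 100, with 22 to 29 genes over 1, against 0.67 to 0.86 for the 294 others.

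How the calls were split depended on the scaling. TMM factors were higher in LV than in SKM by 0.72 on average on the log2 scale. Without composition scaling, the count in banded cats at 4 months was 63 higher in LV (57.9% of all genes) and 18 higher in SKM (15.1% of all genes). In banded cats at 1 month it was 69 higher in LV (60.6%) and 14 higher in SKM (10.0%). Most calls in banded cats were then higher in LV. In sham cats it was 66 (58.4%) and 16 (14.5%) at 4 months, and 64 (52.3%) and 15 (9.04%) at 1 month. The change of scaling moved the median of all genes to between 0.81 and 0.82 in the 4 groups. This shift is nearly the same for all genes, so the distance of the 100 from the median of all genes could hardly change with it. Which tissue was called higher thus depended on the scaling for many of the genes.

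Over the 4 groups with TMM scaling, 15 of the 100 genes were called higher in LV every time (16.1% of all genes) and 28 higher in SKM every time (16.1% of all genes). Of the 294 other abundant genes, 11.6% were called higher in LV and 27.2% higher in SKM every time. With this scaling the 100 thus stood near the 294 in both directions. Without composition scaling, 58 of the 100 were called higher in LV every time (40.9% of all genes) and 13 higher in SKM (6.56% of all genes). Of the 294 others, 37.1% were then called higher in LV and 10.9% higher in SKM. The share higher in LV was thus larger in the 100 than in the 294 without that scaling. With TMM scaling 26 were called in none of the groups, against 16.8% of all genes and 17.3% of the 294 others. The remaining 31 were called in 1 to 3 of the groups, and nothing is read from that remainder. In both directions 0 of the 100 were called, against 208 of all 14579 genes and 4 of the 294 others. Such genes were thus rare everywhere. Averaged over the groups, 8 genes exceeded a log2 fold change of 1 in favour of LV and 15 in favour of SKM. Of these 15, 5 were below -3, and the next gene stood at -1.91, so the 5 stand apart from the rest.

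**Figure D5:**
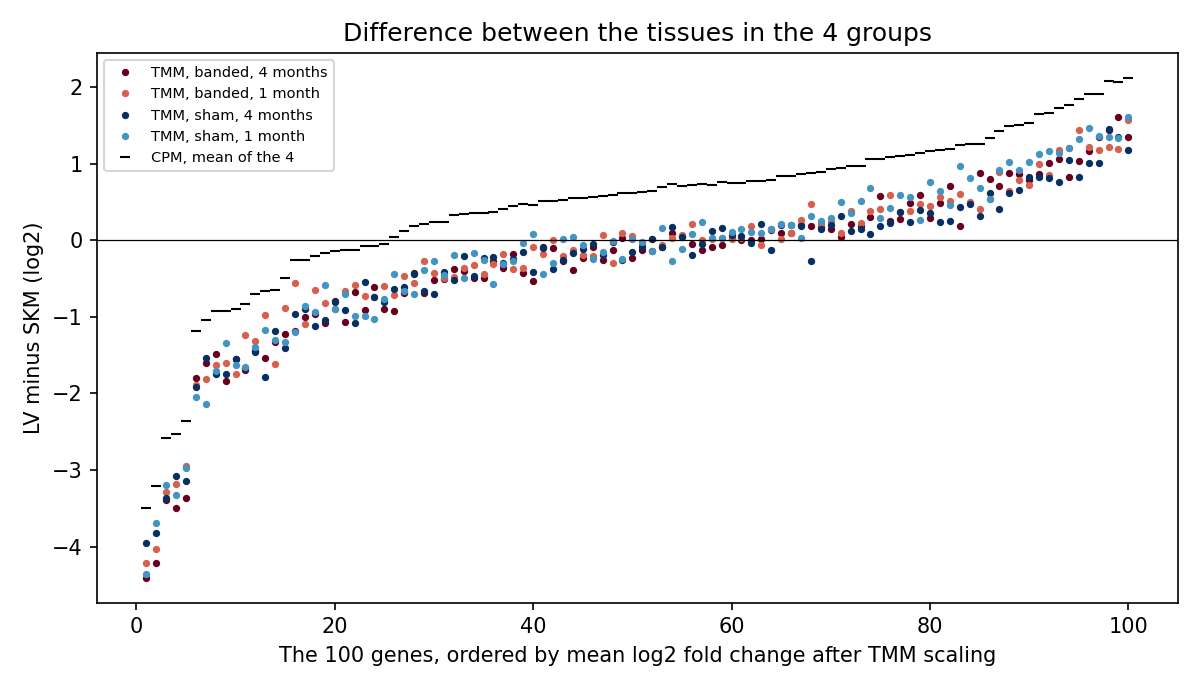
Log2 fold change, LV minus SKM, of each of the 100 genes, ordered by its mean, with a coloured point for each of the 4 groups (edgeR, TMM scaling) and a dash for the mean difference on the plain CPM scale. The 5 genes at the left, far higher in SKM, stand apart on both scales, and the dashes lie above the points because scaling shifts LV against SKM by 0.72 on average.

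ENSFCAG00000024183 had the largest mean fold change in favour of LV. It had 1662, 1503, 1226, 1684 and 1285 CPM in LV of banded cats at 4 months, against 379.9, 425.8, 393.4, 278.2 and 299.2 CPM in SKM. In banded cats at 1 month it had 1710.0, 1583, 1853, 1701 and 1673 CPM in LV, against 527.1, 370.4, 381.4, 353.6 and 153.4 CPM in SKM. LV libraries lay above all SKM libraries in each group. In sham cats at 4 months it had 1909.8, 1473, 1114, 1217 and 1902 CPM in LV, against 524.5, 361.5, 383.8, 309.8 and 472.4 CPM in SKM. The sham cats of 1 month had 1916, 1423 and 1715 CPM in LV, against 477.9, 327.8 and 233.6 CPM in SKM. With edgeR, LV minus SKM came to 1.34 (SE 0.20, adjusted p = 7.25e-07) in banded cats at 4 months and 1.57 (SE 0.20, adjusted p = 8.97e-08) in banded cats at 1 month, on the log2 scale. The sham cats gave 1.18 (SE 0.20, adjusted p = 6.07e-06) at 4 months and 1.61 (SE 0.26, adjusted p = 7.44e-06) at 1 month with edgeR.

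ENSFCAG00000034660 came second. It had 655.1, 716.4, 1040.0, 1153 and 709.7 CPM in LV of banded cats at 4 months, against 202.1, 279.6, 154.6, 117.0 and 123.2 CPM in SKM. In banded cats at 1 month it had 879.0, 546.8, 813.9, 688.3 and 921.0 CPM in LV, against 296.3, 242.0, 257.3, 154.6 and 100.5 CPM in SKM. Here too the libraries of the tissues did not overlap in either group. In sham cats at 4 months it had 903.3, 729.4, 501.2, 528.8 and 911.7 CPM in LV, against 205.1, 182.7, 136.6, 158.0 and 169.9 CPM in SKM. The sham cats of 1 month had 821.5, 566.2 and 610.7 CPM in LV, against 196.4, 140.2 and 154.5 CPM in SKM. Sham libraries did not overlap between the tissues either. With edgeR, LV minus SKM came to 1.61 (SE 0.25, adjusted p = 9.28e-07) in banded cats at 4 months and 1.19 (SE 0.24, adjusted p = 0.000114) in banded cats at 1 month, on the log2 scale. The sham cats gave 1.35 (SE 0.24, adjusted p = 1.48e-05) at 4 months and 1.33 (SE 0.32, adjusted p = 0.000871) at 1 month with edgeR.

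ENSFCAG00000015735 had the largest mean fold change in favour of SKM. It had 277.6, 275.6, 445.7, 222.1 and 501.9 CPM in LV of banded cats at 4 months, against 5034, 4059, 4692, 4106 and 4674 CPM in SKM. In banded cats at 1 month it had 311.0, 565.1, 309.6, 345.1 and 515.0 CPM in LV, against 2800.5, 4037, 5073, 5159.8 and 5683 CPM in SKM. All LV libraries lay far below all SKM libraries, and the SKM libraries of 1 month were the most scattered. In sham cats at 4 months it had 448.8, 329.9, 525.0, 550.4 and 296.5 CPM in LV, against 3975, 3779.8, 3862, 4707 and 3962 CPM in SKM. The sham cats of 1 month had 413.1, 606.9 and 309.7 CPM in LV, against 3274, 5589 and 7037 CPM in SKM. With edgeR, LV minus SKM came to -4.40 (SE 0.30, adjusted p = 4.23e-14) in banded cats at 4 months and -4.22 (SE 0.30, adjusted p = 1.76e-13) in banded cats at 1 month, on the log2 scale. The sham cats gave -3.96 (SE 0.30, adjusted p = 3.81e-13) at 4 months and -4.35 (SE 0.39, adjusted p = 7.72e-11) at 1 month with edgeR. ENSFCAG00000014170, whose libraries are given above and did not overlap between the tissues, came next. With edgeR, LV minus SKM came to -4.22 (SE 0.23, adjusted p = 1.08e-16) in banded cats at 4 months and -3.83 (SE 0.22, adjusted p = 8.3e-16) in sham cats at 4 months, on the log2 scale.

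Level CPM in both tissues could hardly give level values after scaling, which shifts LV against SKM by 0.72 on average. All 8 group means of a gene lay within 0.4 of each other for 7 of the 100 genes on the CPM scale and for 17 with TMM scaling over both tissues, and 0 genes were in both sets. ENSFCAG00000029386 had the smallest range of the 8 means on the CPM scale, 0.26, and a range of 1.05 with TMM scaling. ENSFCAG00000038592, chosen after its values were seen, followed with 0.29 and 1.20. Its mean was 676.2 ± 69.6 CPM in LV and 777.0 ± 70.6 CPM in SKM of banded cats at 4 months (SD, n = 5 each). In sham cats at 4 months its mean was 748.9 ± 126.3 CPM in LV and 705.0 ± 57.8 CPM in SKM (SD, n = 5 each). Its LV and SKM libraries overlapped in all 4 groups.

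With TMM scaling, ENSFCAG00000029386 differed between LV and SKM by -0.91 (SE 0.10, adjusted p = 3.45e-09) in banded cats at 4 months and -0.54 (SE 0.10, adjusted p = 3.09e-05) in sham cats at 4 months, with edgeR. Without composition scaling it was -0.20 (adjusted p = 0.0545) in banded cats and 0.19 (adjusted p = 0.0702) in sham cats at 4 months, with edgeR. ENSFCAG00000038592 differed between the tissues by -0.92 (SE 0.14, adjusted p = 8.68e-07) in banded cats at 4 months and -0.63 (SE 0.14, adjusted p = 0.00019) in sham cats at 4 months, with edgeR. Without composition scaling it was -0.20 (adjusted p = 0.179) in banded cats and 0.09 (adjusted p = 0.566) in sham cats at 4 months, with edgeR. Both genes stand here for their small range of CPM, so a small difference on that scale, and its shift with TMM scaling, follow from how they were picked and are a description only.

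The most scattered gene, ENSFCAG00000012428, differed between LV and SKM by 0.87 (SE 0.23, adjusted p = 0.00159) in banded cats at 4 months and 0.41 (SE 0.23, adjusted p = 0.144) in banded cats at 1 month, with edgeR. The sham cats gave 0.32 (SE 0.23, adjusted p = 0.237) at 4 months and 0.69 (SE 0.30, adjusted p = 0.0643) at 1 month with edgeR. Its LV and SKM libraries did not overlap in CPM in any of the 4 groups, and after TMM scaling 1 of the 4 differences was called. Without composition scaling all 4 were called with edgeR, with 1.58 (adjusted p = 3.4e-06) in banded cats at 4 months and 1.09 (adjusted p = 0.000458) in banded cats at 1 month. The sham cats then gave 1.05 (adjusted p = 0.000656) at 4 months and 1.33 (adjusted p = 0.00121) at 1 month with edgeR. With TMM scaling the sham 1-month difference was called with edgeR without library 2 of sham LV at 1 month (0.97, adjusted p = 0.0102), without library 1 of sham SKM at 1 month (0.95, adjusted p = 0.0237) and without library 5 of banded SKM at 1 month (0.69, adjusted p = 0.0425). The calls for this gene thus depended on the scaling and, in sham cats at 1 month, on single libraries.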

How the data were processed

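The authors deposited 1 file of read counts per gene for each of 36 libraries, with 26681 genes and 5 summary lines, which were left out of totals and tests. Per the labels' protocols, a stranded mRNA kit was used on total RNA. Per the submitters' processing notes, the tools were DESeq2 1.22.2, HISAT2 2.1.0 and HTSeq 0.11.2, and the genome build and annotation are not given in the sources used here. In the 8 comparison tables the authors deposited, each gene has a signal (its average count after normalization), a log2 fold change with SE, a score (the test statistic) and p-values before and after adjustment. These tables were used to count calls among the 100 genes and among all genes. Those that involve sham at 4 months were also used to see which library 1 their fold changes matched, over 9756 genes in LV and 9177 in SKM.

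CPM used the sum of gene counts as library total, and a tissue mean is the mean over its 18 libraries. The genes, the comparisons and the rule for named genes were chosen with earlier results of these data known. The rule named the first 2 genes by smaller tissue mean, by mean LV minus SKM fold change in each direction among those called in all 4 groups, and by lowest and highest average within-group SD, and those next to the limits. Symbol lists could not be used.

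All 36 libraries entered one fit of 8 group means with edgeR 4.0.16 under R 4.3.3 (filterByExpr, TMM, quasi-likelihood, two-sided). The 4 differences of LV minus SKM were tested over 14579 genes with Benjamini-Hochberg adjustment, and an adjusted p under 0.05 was a call. The fit was tested on simulated data. Alternatives were DESeq2 1.42.0, limma 3.58.1 voom, other scalings, all genes kept, fits restricted to each pair of groups, a block for library number, and single libraries left out. Tables and figures were made with Python 3.11.15, pandas 2.3.3, numpy 2.4.6 and matplotlib 3.10.9.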

Additional observations from a re-analysis of the deposited data

Results flagged for a closer look

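In groups of 5 libraries, a library was marked when its gap to the nearest other library was too large a part of the group's range by Dixon's criterion. This held in 5 of 114 sets of 5 libraries, where chance marks about 1 in 20. ENSFCAG00000002107 had 6331 CPM in library 1 of banded SKM at 4 months, and the other 4 libraries ran from 5617 to 5797 CPM. ENSFCAG00000015735 had 4707 CPM in library 4 of sham SKM at 4 months, and the others ran from 3780.0 to 3975 CPM. ENSFCAG00000029386, the gene with the lowest SD, had 233.8 CPM in library 1 of banded LV at 4 months, and the others ran from 177.7 to 192.2 CPM. ENSFCAG00000038613, the first gene outside the limit on group differences, had 445.0 CPM in library 1 of banded LV at 4 months, and the others ran from 275.8 to 320.1 CPM. The same gene had 700.6 CPM in library 1 of sham SKM at 4 months, and the others ran from 283.1 to 403.9 CPM.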

How the results depend on the processing

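The numbers of genes called between LV and SKM were 61, 62, 54 and 56 in banded cats at 4 months, banded cats at 1 month, sham cats at 4 months and sham cats at 1 month. The shares of all genes were 67.8%, 53.3%, 65.3% and 44.6%. They moved by over 1.5 times in only 2 cases among the alternatives run, to 82 in sham cats at 4 months without composition scaling, and to 34 in sham cats at 1 month when only the groups compared were fitted. With 1 library left out at a time they ran from 59 to 65 in banded cats at 4 months, from 59 to 64 in banded cats at 1 month, from 51 to 56 in sham cats at 4 months and from 43 to 60 in sham cats at 1 month. With replicate number as a block they were 61, 61, 52 and 52. The labels do not say that LV and SKM libraries with the same number come from the same cat. Residuals of same-numbered libraries correlated above 0.1 in 13 of 18 pairs (-0.03 to 0.36). Each LV library had 5 SKM libraries of its group to match, or 3 in sham cats at 1 month. Of the 18 LV libraries, 11 matched best the SKM library of their own number. Whether same-numbered libraries come from the same cat was not tested. Library number also went with a pattern shared by banded and sham groups at both times. On the CPM scale, library 1 of every group had the most chosen genes above the group mean, 82 to 85 in LV and 71 to 89 in SKM. With TMM scaling this held only in sham LV and sham SKM at 4 months and in banded SKM at 1 month. What the correlations reflect was therefore left undecided. Pairing was to be taken only if every pair exceeded 0.1, so the tests treat the tissues as independent. Their p-values leave out any dependence between same-numbered libraries. Of 1760 recomputed fold changes of named genes, 1737 kept direction and call, 14 lost the call, 6 gained it and 3 changed direction. The 3 were all without composition scaling, namely 0.19 (adjusted p = 0.0702 with edgeR) for ENSFCAG00000029386 in sham cats at 4 months, 0.0873 (adjusted p = 0.566 with edgeR) for ENSFCAG00000038592 in sham cats at 4 months, and 0.27 (adjusted p = 0.18 with edgeR) for it in sham cats at 1 month.

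Which genes were chosen depended more on the settings. Of the 100 genes, 64 were chosen again with TMM scaling, 57 with scaling by relative log expression (RLE), 38 with a limit of 0.3, 59 with a limit of 0.5, under which all 100 stayed within the limit, and 55 with group medians in place of means. Pseudocounts of 1 and 0.1 gave the same 100. With 1 library left out at a time 65 to 100 were chosen again, the lowest without library 2 of sham LV at 1 month, and 92 without library 1 of sham cats at 4 months in both tissues. The cause of these changes was not tested. The median within-group SD of the 100 genes stayed between 0.19 and 0.22 in LV and between 0.20 and 0.25 in SKM.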
